A study of Mus musculus with 21 samples.

Results

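Long activation of the eIF2alpha kinase PERK was followed in MIN6m9 cells, a subclone of an insulin-producing mouse beta cell line. The cells carried Fv2E-PERK, a PERK kinase domain fused to a binding module that dimerises when the small molecule AP20187 is added, so the kinase can be switched on without disturbing protein folding in the endoplasmic reticulum (ER). Cells given 1 nM AP20187 for 48 h (2 arrays) were compared with Fv2E-PERK cells given a mock treatment, the ethanol vehicle (2 arrays). These are 4 of the 21 arrays of the series, picked by their titles. The comparison itself was chosen with earlier results of these data known. The other arrays used here are Fv2E-PERK cells at 6, 12 and 24 h of AP20187 and wild-type MIN6m9 cells after mock treatment (2 arrays each). Both groups compared carry the transgene, so the comparison is about the drug in transgenic cells. The labels do not say whether the line is 1 clone, how long the mock cells were kept or whether the 2 replicates were separate cultures. The tests therefore weigh each change against a spread that may be technical.

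PERK phosphorylates the translation factor eIF2alpha. That lowers protein synthesis in general but raises translation of ATF4, a transcription factor that switches on genes for amino acid supply, tRNA charging and, with CHOP (Ddit3), for cell death and for GADD34 (Ppp1r15a), which guides the phosphatase that reverses the signal. This integrated stress response is 1 arm of the unfolded protein response, next to the ATF6 and IRE1-XBP1 arms that raise ER chaperones. Beta cells depend on PERK because they fold large amounts of proinsulin, and its loss causes diabetes.

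Signals are log2 values of the background-corrected spot intensity minus the array's 75th percentile, and each value below is that level unless called a change. Changes are log2 differences, 48 h minus mock, with the standard error of the limma fit and an adjusted p (Benjamini-Hochberg over 23388 entries, that is genes or unnamed transcripts), with n = 2 arrays a group throughout. A gene rose or fell where that p was under 0.05. By this rule 14454 entries changed (61.8%), 6356 of them higher (27.2%) and 8098 lower (34.6%), with a median change of -0.07 over all entries, and the groups did not overlap in 83.4% of entries. Because so many entries pass, counts are also given for changes of at least 2-fold, which 4714 entries made (20.2%), 2427 upward (10.4%) and 2287 downward (9.78%). These shares are the background against which each gene group should be read.

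Some facts touch all of these values. The 48 h arrays were brighter (signal at the 75th percentile 823.3 and 739.3, against 463.4 and 391.0 for mock), and 56.0 and 56.9% of their probes were well above background, against 49.0 and 46.8%. They lay on slide 3 together with the wild-type mock arrays, whereas the mock and all earlier AP20187 arrays lay on slide 4, so slide and treatment cannot be told apart. Against the wild-type mock cells on the same slide, which differ in genotype too, 14930 entries changed (63.8%; 27.5% higher, 36.3% lower), and of the 14454 entries above 11944 passed in the same direction and 327 in the opposite one. Scaling to 7 spike-in RNA probes instead of the 75th percentile added 0.59 to every change and turned the split to 10166 higher and 1324 lower (88.5% higher, against 44.0%). The split was 5135 to 10612 with normexp background correction and 6128 to 13834 without the filter on dim probes. On the spike-in scale all 6356 higher calls stayed higher, while 2938 of the 8098 lower ones lay above 0, so the direction of a fall smaller than 0.59 depends on the scale. Transgenic mock cells differed from wild-type mock cells in 4679 entries (20%; 9.23% higher, 10.8% lower). Entries that differed from 48 h numbered 14219 at 6 h (60.8%) and 13953 at 12 h (59.7%). The labelled cell type was borne out by its markers: 12 of 13 beta cell markers were well above background on both arrays of each group, Slc2a2 being the other.

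Genes of the stress response stood far above mock at 48 h. Of 26 stress factors and their targets tested, 20 rose and 4 fell, 15 and 2 of them by at least 2-fold, with a median change of 1.39 (1.30 with genes dim in 1 group at their bound) against -0.07 over all entries. Atf3, a stress-induced repressor and activator of the bZIP family, had signals of 5.25 and 5.31 at 48 h and of -1.18 and -1.30 in mock cells. It rose by 6.52 ± 0.08 (adjusted p = 7e-09), with both treated arrays far above both mock arrays. Ppp1r15a, which encodes GADD34, stood at 6.73 and 6.71 against 2.85 and 2.95, a rise of 3.82 ± 0.08 (adjusted p = 6e-08). Trib3, a pseudokinase that restrains AKT signalling, gave 7.67 and 7.63 against 4.26 and 4.48 and rose by 3.28 ± 0.12 (adjusted p = 6.3e-07).

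Jdp2, a bZIP partner of ATF3 and JUN proteins, had signals of 1.90 and 1.81 at 48 h and -1.25 and -1.37 in mock cells (change 3.16 ± 0.12, adjusted p = 7.8e-07). Ddit3, the gene of CHOP, was at 4.75 and 4.62 against 3.06 and 3.07 (1.62 ± 0.08, adjusted p = 2.5e-06). Fgf21, a hormone released by stressed cells, was well above background on neither mock array and at least 2.46-fold higher. Atf4 itself, whose control lies mainly in translation, stood at 7.98 and 7.94 against 7.72 and 7.68. The 2 groups did not overlap, but the change of 0.26 ± 0.12 did not pass (adjusted p = 0.083). That result hangs on the processing: Atf4 passed with quantile normalization (0.88), normexp (0.41), spike-in scaling (0.85), the fit of the 4 arrays alone (0.26) and the mean over its probes (0.60). Eif2ak3, the endogenous PERK gene, changed by 0.23 ± 0.15 and did not pass (adjusted p = 0.20), and whether its probe covers the transgene is unknown.

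The 4 that fell were Ero1a, an ER oxidase, Ddit4, an inhibitor of mTORC1, Vldlr, a lipoprotein receptor, and Stc2, a secreted stanniocalcin. Ero1a fell from 1.21 and 1.20 to -0.21 and -0.01 (change -1.31 ± 0.16), and Ddit4 fell from 5.45 and 5.48 to 4.23 and 4.18 (-1.26 ± 0.08). Both genes are known to respond to hypoxia as well as to ER stress. Vldlr fell by 0.64 ± 0.12, and for Stc2, dim in both groups, no fold is given. A list of 15 genes covers eIF2, its kinases, its exchange factor eIF2B and its phosphatase, and also holds Dnajc3 and Nck1. Of these 15, 7 rose and 4 fell, with a median of 0.23. Dnajc3 and Nck1 were both among the falls. Ppp1r15b, the constitutive partner of the eIF2alpha phosphatase, had signals of 0.87 and 0.80 against -0.92 and -1.03 and rose by 1.81 ± 0.10. Eif2s2, the beta subunit of eIF2, rose by 1.28 ± 0.13 and Eif2b3, a subunit of eIF2B, by 0.81 ± 0.08. Dnajc3, an ER co-chaperone first described as a kinase inhibitor, fell by 0.89 ± 0.09.

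**Figure D1:**
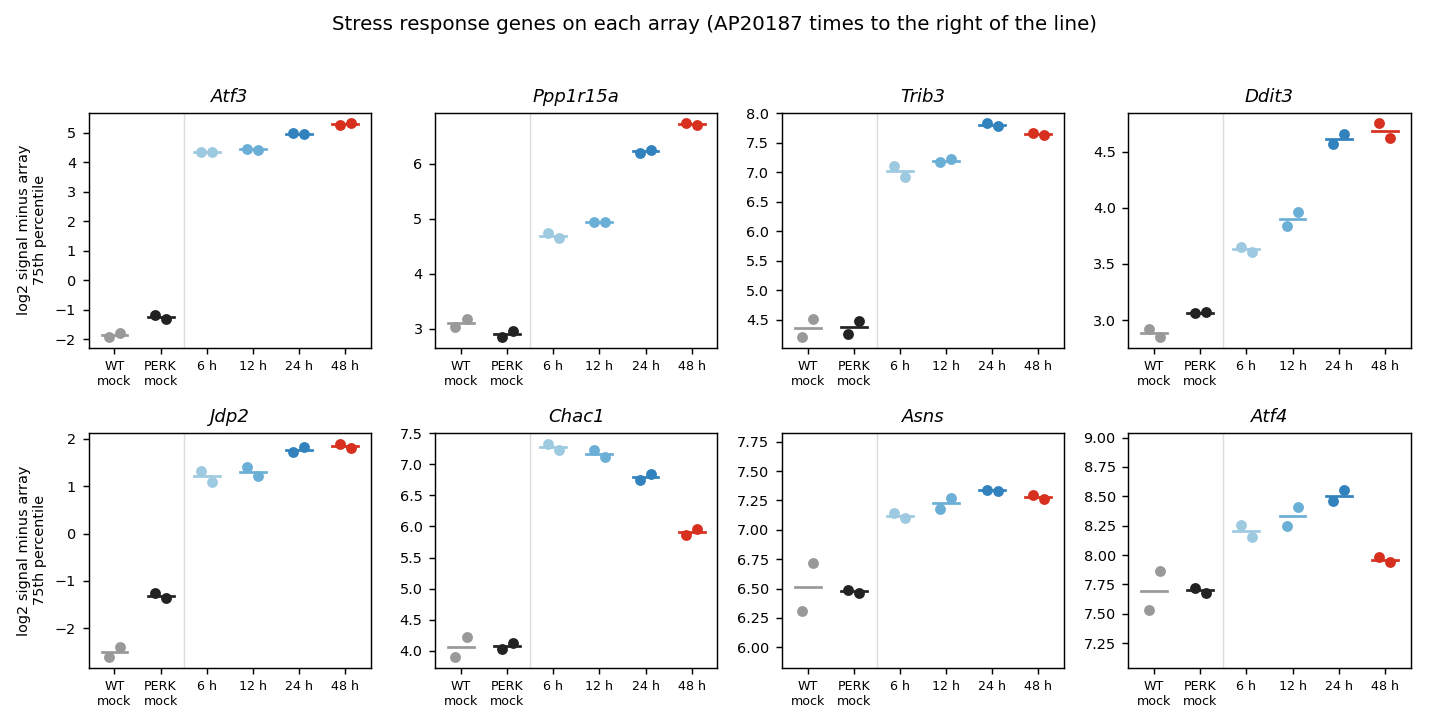
Log2 signal minus the array's 75th percentile (vertical axes, which differ between panels) of 8 stress response genes on each of 12 arrays. Points are arrays and bars are means of 2, for wild-type and Fv2E-PERK mock cells and for 6, 12, 24 and 48 h of AP20187. Atf3 sits at 5.25 and 5.31 at 48 h against -1.18 and -1.30 in mock cells, whereas Atf4 at 7.98 and 7.94 lies close to its mock values of 7.72 and 7.68.

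The promoters of several of these genes carry the composite element that ATF4 and C/EBP proteins are known to bind as a pair, with the letters TTGCATCA on either strand. In the 250 bases before each RefSeq transcription start (mouse build GRCm38.p6), 0.918% of 27025 genes held it, against 6 of the 23 stress genes that could be matched (26.1%), 2 of 13 cytosolic tRNA synthetases (15.4%) and 2 of 9 genes of asparagine, proline, alanine and glutamate metabolism (22.2%). It was also found for 2 of 7 genes of cysteine supply and glutathione and 2 of 16 amino acid transporters. For serine, glycine and one-carbon enzymes it was 0 of 11, and for mitochondrial tRNA synthetases 0 of 14. Trib3, Ddit3 and Ppp1r15a had no match in this window, which says only that these letters are not there. Of 15 genes of any list that carried it 14 were tested, of which 12 rose and 2 fell (Vldlr, and Cnpy2, an ER protein, by 0.25). Over all entries 27.2% rose and 34.6% fell. The element was found for 248 genes, and those outside the lists were not counted. Since the lists were chosen with earlier results of these data known, the count cannot tie the element to the rises. Stretches around the match follow for 6 of the 12 that rose, picked to show stress factors and amino acid genes, 5′ to 3′ on the gene's strand, with the element in capitals.
Atf3 (chr1:191183391-191183488, minus strand): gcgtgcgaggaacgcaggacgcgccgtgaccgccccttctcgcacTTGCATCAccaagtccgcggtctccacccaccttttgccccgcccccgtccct
Jdp2 (chr12:85599338-85599415, plus strand): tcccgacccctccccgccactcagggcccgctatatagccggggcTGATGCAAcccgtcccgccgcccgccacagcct
Chac1 (chr2:119351004-119351101, plus strand): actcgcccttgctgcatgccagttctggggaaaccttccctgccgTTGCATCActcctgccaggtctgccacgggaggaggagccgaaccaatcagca
Slc7a11 (chr3:50443627-50443724, minus strand): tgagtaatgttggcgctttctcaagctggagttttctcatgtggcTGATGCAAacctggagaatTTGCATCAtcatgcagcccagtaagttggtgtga
Aars (chr8:111033685-111033782, plus strand): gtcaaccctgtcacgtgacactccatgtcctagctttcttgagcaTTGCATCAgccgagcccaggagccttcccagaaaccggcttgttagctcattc
Got1 (chr19:43524655-43524752, minus strand): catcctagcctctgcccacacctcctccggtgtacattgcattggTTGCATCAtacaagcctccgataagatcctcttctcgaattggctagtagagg

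Slc7a11, the cystine transporter, whose stretch holds 2 copies on opposite strands, was well above background on neither mock array and reached -0.43 and -0.45 at 48 h, at least 12.4-fold higher. Chac1, which degrades glutathione, had signals of 5.86 and 5.96 against 4.03 and 4.12 and rose by 1.83 ± 0.11, less than its change of 3.20 at 6 h. Got1, cytosolic aspartate aminotransferase, rose by 0.75 ± 0.10.

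Most genes of serine and one-carbon metabolism, which supply amino acids and folate units, were higher too. Of 14 enzymes of serine, glycine and one-carbon metabolism 10 rose and 0 fell, 8 by at least 2-fold, with a median change of 1.34. Phgdh, the first enzyme of serine synthesis, had signals of 6.31 and 6.28 at 48 h and 3.79 and 3.68 in mock cells (change 2.56 ± 0.15, adjusted p = 4.8e-06). Shmt2, the mitochondrial enzyme that splits serine, rose by 2.31 ± 0.12. Among 10 genes of cysteine supply and glutathione 6 rose and 4 fell. Cth, which makes cysteine from cystathionine, went from -0.64 and -0.82 to 2.25 and 2.40 (3.05 ± 0.14), and Gclc, the first enzyme of glutathione synthesis, rose by 0.88 ± 0.08. Cbs, the step before Cth, moved the other way, falling by 0.87 ± 0.08.

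The 12 genes of asparagine, proline, alanine and glutamate metabolism split evenly, with 5 rises, 5 falls and a median of 0.00. Aldh18a1, the entry to proline synthesis, had signals of 3.33 and 3.47 against 0.73 and 0.87 and rose by 2.60 ± 0.12. Gpt2, mitochondrial alanine aminotransferase, rose by 1.64 ± 0.13. Asns, asparagine synthetase and a standard marker of ATF4 activity, rose by only 0.80 ± 0.12, from 6.49 and 6.46 to 7.30 and 7.26. Glul, glutamine synthetase, fell from 3.43 and 3.42 to 1.76 and 1.67 (-1.71 ± 0.07), and Oat, ornithine aminotransferase, fell by 0.89 ± 0.13.

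Of 21 amino acid transporters 13 rose and 6 fell, 11 and 3 by at least 2-fold, with a median of 1.08 that is 0.66 with dim genes at their bound. Slc7a3, a carrier of cationic amino acids, had signals of 5.01 and 4.91 at 48 h and 2.45 and 2.26 in mock cells (2.60 ± 0.21). Slc3a2, the heavy chain shared by several exchangers including the cystine carrier, rose by 2.31 ± 0.10, and Slc6a9, a glycine transporter, by 2.12 ± 0.14. Another cationic carrier, Slc7a2, fell by 1.37 ± 0.20. Slc43a2, a carrier of large neutral amino acids, fell by 1.32 ± 0.11.

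Genes of transfer RNA charging were counted by compartment. Of 20 cytosolic aminoacyl-tRNA synthetases, which load amino acids onto tRNAs, 17 rose and 1 fell, 9 of them rising at least 2-fold, with a median change of 0.90. Aars, the alanine enzyme, had signals of 6.44 and 6.45 against 4.35 and 4.31 (2.11 ± 0.09, adjusted p = 1.3e-06). Nars, Yars and Vars, the asparagine, tyrosine and valine enzymes, rose by 1.99 ± 0.15, 1.98 ± 0.27 and 1.89 ± 0.10. Qars, the glutamine enzyme, fell by 0.72 ± 0.07. Among 16 mitochondrial synthetases 5 rose and 3 fell, with a median of 0.07, and the difference between the 2 sets was not tested. Ears2 and Yars2, the mitochondrial glutamate and tyrosine enzymes, rose by 1.17 ± 0.08 and 0.87 ± 0.08, while Pars2, the proline enzyme, fell by 1.07 ± 0.08.

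**Figure D2:**
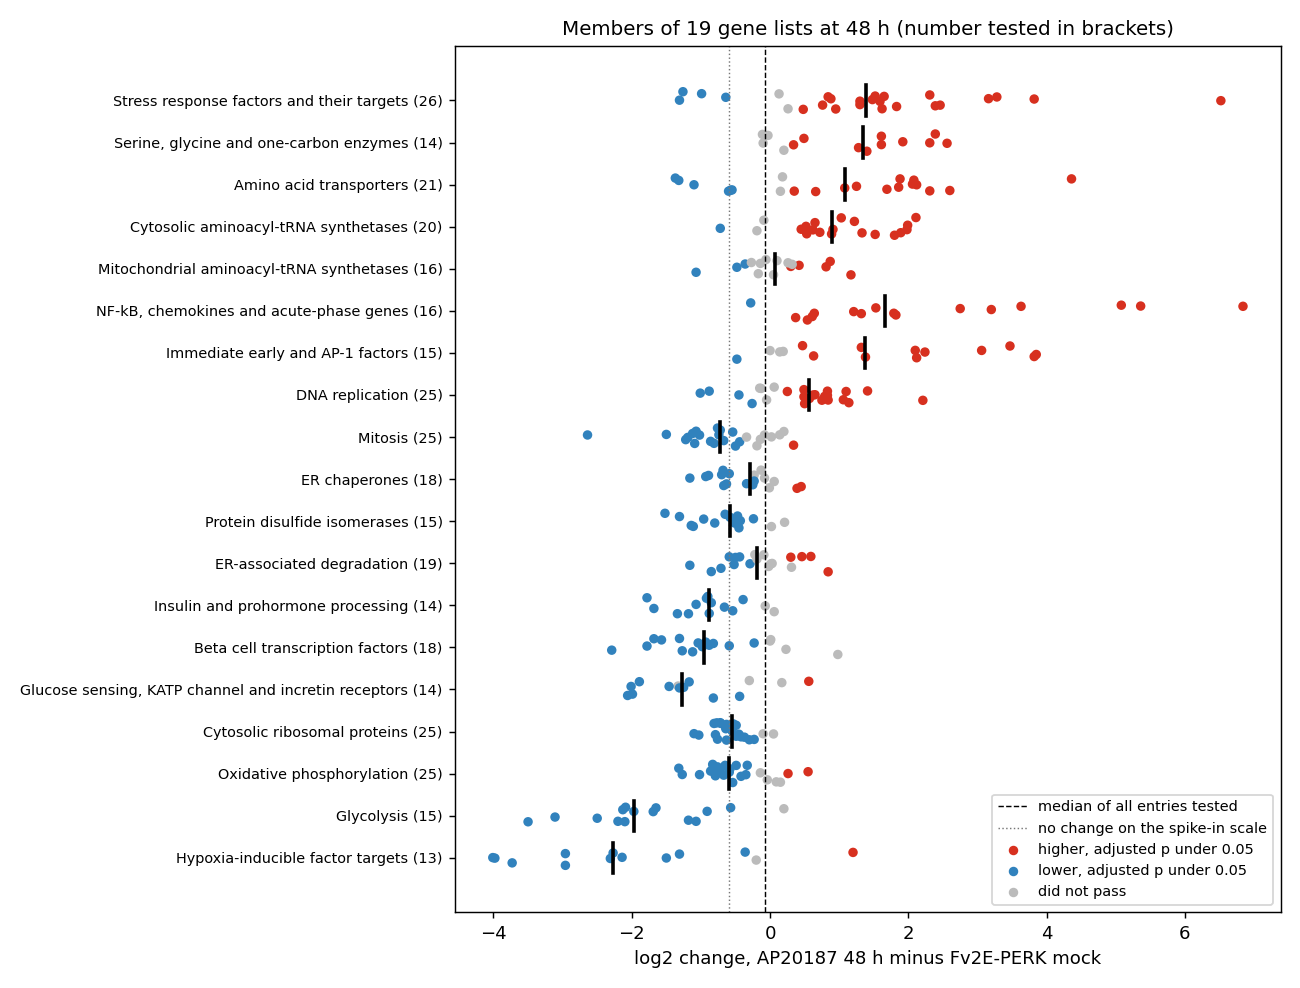
Log2 change, 48 h minus mock (horizontal axis), of each tested member of 19 gene lists, with the number tested in brackets. Red and blue points passed the test upward and downward, grey points did not, and black bars are medians; the dashed line is the median of all entries (-0.07) and the dotted line, at -0.59, is where the spike-in scale has its 0. Stress factors (median 1.39) and cytosolic synthetases (0.90) lie right of the dashed line, and glycolysis (-1.97) and hypoxia-inducible factor targets (-2.27) lie farthest left.

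ER folding genes, which the other arms of the unfolded protein response are known to raise, were mostly lower or did not pass, on a scale that decides the sign. Of 18 ER chaperones 2 rose and 11 fell, with a median of -0.29 that turned to 0.05 with quantile normalization and 0.29 on the spike-in scale. Hspa5, the central ER chaperone BiP, gave 7.70 and 7.77 at 48 h and 7.78 and 7.70 in mock cells, overlapping values with a change of -0.01 ± 0.10 (adjusted p = 0.96). It was higher and passed with quantile normalization (0.60), and had positive changes with normexp (0.13) and spike-in scaling (0.58) that did not pass. Dnajb9, a BiP co-chaperone, rose by 0.45 ± 0.09 and Hyou1, a BiP exchange factor, by 0.39 ± 0.09. Neither passed against wild-type mock cells (0.12 and 0.09), and without 48 h replicate 1 Hyou1 no longer passed (0.28). Dnajc10, a disulfide reductase of the ER, fell by 1.16 ± 0.13 and Fkbp2, a prolyl isomerase, by 0.93 ± 0.12.

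Of 15 protein disulfide isomerases and oxidases 13 fell and 0 rose, with a median of -0.58 that was 0.01 on the spike-in scale. Ero1b, the ER oxidase typical of the pancreas, had signals of 4.53 and 4.56 against 6.14 and 5.99 and fell by 1.52 ± 0.13, and Erp29 fell by 1.14 ± 0.07. Of 19 genes of ER-associated degradation 4 rose and 8 fell (median -0.19, turning to 0.01 with quantile normalization and 0.40 on the spike-in scale). Herpud1, a scaffold of that pathway, rose from 4.25 and 4.08 to 5.08 and 4.93 (0.84 ± 0.13). Edem1 and Derl2, which hand over and extract misfolded proteins, fell by 1.16 ± 0.16 and 0.71 ± 0.09, and on the spike-in scale neither passed. Of 11 regulators of the IRE1 and ATF6 arms 3 rose and 4 fell. Their median of -0.09 turned to 0.03 with quantile normalization and 0.50 on the spike-in scale. The 4 that fell were Creb3l3 (-0.61), Mbtps1 (-0.54), Mbtps2 (-0.42) and Atf6b (-0.38). Atf6, the sensor of its own arm, rose by 1.02 ± 0.11. Xbp1 changed by 0.39 ± 0.12 and passed (adjusted p = 0.019), a call lost without either 48 h replicate (0.39 each), without mock replicate 2 (0.34) and against wild-type mock cells (0.03).

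The ER stress response element that ATF6 and XBP1 are known to bind, CCAAT and CCACG with 9 bases of any kind between them on either strand, was present before the start of 0.13% of all genes and of 6 of 15 matched ER chaperones (40%). It is shown for 3 genes described above, whole in capitals.
Hspa5 (chr2:34771980-34772088, plus strand): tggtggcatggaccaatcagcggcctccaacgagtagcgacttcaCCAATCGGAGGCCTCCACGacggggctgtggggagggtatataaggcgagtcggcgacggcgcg
Dnajc3 (chr14:118937782-118937890, plus strand): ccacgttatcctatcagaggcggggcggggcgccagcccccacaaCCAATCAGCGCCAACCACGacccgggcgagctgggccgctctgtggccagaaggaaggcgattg
Ero1b (chr13:12565637-12565745, plus strand): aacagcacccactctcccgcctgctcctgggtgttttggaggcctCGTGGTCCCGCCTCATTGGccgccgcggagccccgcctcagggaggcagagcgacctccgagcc

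Of these 3 genes Hspa5 did not pass and Dnajc3 and Ero1b fell. Over all 11 list genes that carried the element 7 fell, 3 did not pass and 1 rose, which was Acacb, an acetyl-CoA carboxylase (3.73 ± 0.09). Over all entries 34.6% fell and 27.2% rose. On the spike-in scale Dnajc3 did not pass either (-0.30). Canx (-0.34), Creld2 (-0.23), Derl3 (-0.29) and Syvn1 (-0.52) fell by less than 0.59, so the direction of these falls depends on the scale. A match describes the sequence and says nothing of binding in these cells.

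The gene lists with the lowest medians were glycolysis and genes known as targets of hypoxia-inducible factor (HIF), the oxygen-sensitive factor that raises glucose breakdown. Of 15 glycolysis genes 14 fell and 0 rose, 12 by at least 2-fold, with a median of -1.97. Of 13 genes listed as HIF targets 11 fell and 1 rose, 10 and 1 by at least 2-fold, with a median of -2.27. That list, here and below, also holds Hif1a, the gene of a HIF subunit. Hif1a changed by -0.20 and did not pass the limma test (adjusted p = 0.29). The medians of both lists stayed negative with quantile normalization (-1.56 and -2.27), normexp (-1.85 and -2.07) and spike-in scaling (-1.38 and -1.68). Against wild-type mock cells 14 and 11 members were lower at 48 h and 1 of each was higher. Transgenic mock cells were themselves lower than wild-type mock cells in 5 glycolysis genes and 8 HIF targets.

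Slc16a3, the lactate exporter MCT4, had signals of 0.60 and 0.45 at 48 h and 5.55 and 5.58 in mock cells. Its fall by 5.04 ± 0.17 (adjusted p = 4.8e-07) was the largest among named genes measured on all 4 arrays. Mgarp, a mitochondrial protein, fell by 4.52 ± 0.13, from 5.18 and 5.15 to 0.73 and 0.56. Pdk1, the kinase that shuts pyruvate out of mitochondria, stood at -1.04 and -1.02 against 3.04 and 2.91 (-4.01 ± 0.09, adjusted p = 1.3e-07). Ak4, a mitochondrial adenylate kinase, fell from 3.54 and 3.45 to -0.46 and -0.54. Bnip3, which marks mitochondria for autophagy, fell from 8.19 and 8.27 to 4.25 and 4.26 (-3.98 ± 0.07), and its relative Bnip3l by 1.87 ± 0.09.

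Fam162a, a HIF-responsive mitochondrial protein, fell by 3.89 ± 0.08 and Ankrd37, a small ankyrin repeat protein, by 3.73 ± 0.11. Ldha, which turns pyruvate into lactate, had signals of 5.23 and 5.01 against 8.61 and 8.63 (-3.50 ± 0.11, adjusted p = 4.1e-07). Aldoc, an aldolase, fell by 3.11 ± 0.07, Gpi1, glucose-6-phosphate isomerase, by 2.50 ± 0.07 and Tpi1, triose phosphate isomerase, by 2.20 ± 0.09. Adm, the vasodilator peptide adrenomedullin, fell by 2.96 ± 0.10 and P4ha1, a collagen prolyl hydroxylase, by 2.96 ± 0.12. Stc1, stanniocalcin, was at least 5.35-fold lower, since it was well above background on neither 48 h array. Gapdh, often used as a reference gene, fell from 9.23 and 9.36 to 8.35 and 8.43 (-0.91 ± 0.08), and Actb, another, fell by 0.92 ± 0.10, and neither passed on the spike-in scale (-0.32 and -0.33).

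Ndrg1, also counted among the HIF targets and induced by several stresses, was the one that rose (1.20 ± 0.09). It had been lower than mock at 6 h (-0.59). At 6 h of AP20187, against the same mock arrays, 15 glycolysis genes and 11 HIF targets were lower and 0 were higher, with medians of -1.27 and -2.01, where 40% of all entries were lower and 24.9% higher. From 24 to 48 h, in a test that uses no mock array, 3 glycolysis genes and 5 HIF targets fell further and 2 of each rose, against 23.1% of all entries lower and 25.6% higher. Slc16a3 was 4.21 below mock at 6 h, and Ldha 1.82, 2.50, 2.85 and 3.50 below at 6, 12, 24 and 48 h.

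**Figure D3:**
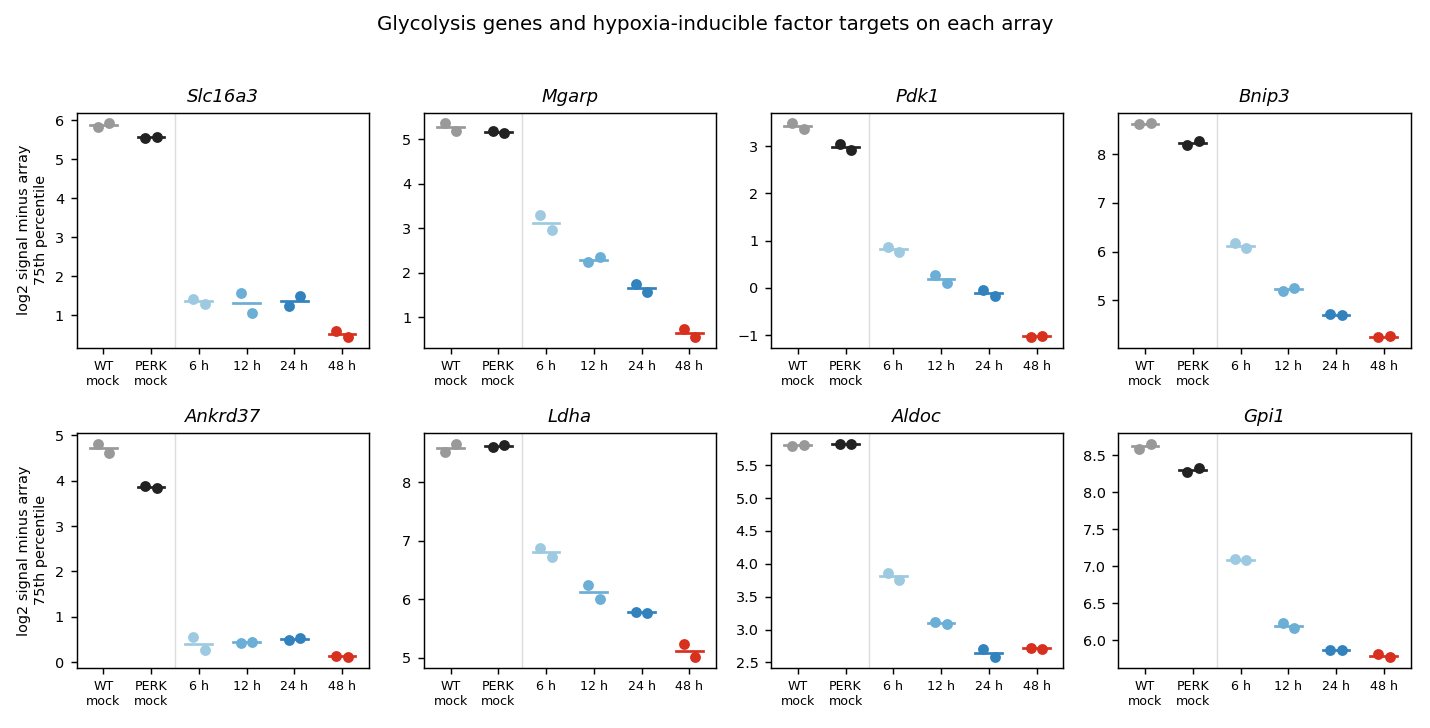
Log2 signal minus the array's 75th percentile (vertical axes, which differ between panels) of 8 glycolysis genes and HIF targets on each of 12 arrays, with points for arrays and bars for means of 2. All 8 genes are lower at 48 h than in both kinds of mock cells, from Slc16a3 (0.60 and 0.45 against 5.55 and 5.58) to Gpi1 (5.81 and 5.77 against 8.27 and 8.33).

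The core of the hypoxia response element, ACGTG on either strand, is short and occurs before the start of 18.5% of all genes. It was found for 11 of 13 matched genes of the HIF target list (84.6%), Hif1a included, and for 7 of 15 glycolysis genes (46.7%). It was also found for 9 of 13 disulfide isomerases (69.2%), so it was common in other lists as well. It can overlap the ER stress response element. Of 170 genes of any list that carried the core 159 were tested, of which 39 rose, 78 fell and 42 did not pass. Over all entries 27.2% rose and 34.6% fell. Since the lists were chosen with earlier results of these data known, the count cannot tie the core to the falls. The core is shown in capitals for 3 of the genes with the deepest falls.
Ldha (chr7:46845614-46845708, plus strand): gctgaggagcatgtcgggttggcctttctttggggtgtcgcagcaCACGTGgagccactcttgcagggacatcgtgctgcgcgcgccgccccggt
Bnip3 (chr7:138909565-138909659, minus strand): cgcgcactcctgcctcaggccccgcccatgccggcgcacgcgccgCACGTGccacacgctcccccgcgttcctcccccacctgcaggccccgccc
Ankrd37 (chr8:46000042-46000100, minus strand): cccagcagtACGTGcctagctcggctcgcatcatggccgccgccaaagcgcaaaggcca

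In Ldha and Bnip3 the capitals hold the core on both strands, which overlap in CACGTG. The data do not bear on whether HIF was bound at any of these stretches.

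Beta cell genes fell broadly, though insulin itself moved little. Of 14 genes of insulin and prohormone processing 12 fell and 0 rose, 5 by at least 2-fold, with a median of -0.89 (-0.30 on the spike-in scale, -0.38 with quantile normalization). Ins1 had signals of 9.51 and 9.64 at 48 h and 9.87 and 10.06 in mock cells, a change of -0.39 ± 0.11 (adjusted p = 0.016). The call was lost without 48 h replicate 1 (-0.33) and without mock replicate 2 (-0.30), and the change was 0.20 with spike-in scaling and 0.07 with quantile normalization, neither passing. Ins2 gave 9.08 and 9.19 against 9.12 and 9.28, overlapping values with a change of -0.07 ± 0.13 (adjusted p = 0.67) that was higher and passed with quantile normalization (0.41). The 2 insulin genes are close copies, and the labels do not say how far their probes tell them apart.

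Slc30a8, the zinc transporter of insulin granules, fell from 5.99 and 5.88 to 4.14 and 4.16 (-1.78 ± 0.10, adjusted p = 3.2e-06). Scg5, a chaperone of the convertase PC2, stood at 6.57 and 6.49 against 8.23 and 8.19 (-1.68 ± 0.09). Cpe, carboxypeptidase E, fell by 1.34 ± 0.10 and Pcsk2, the convertase PC2, by 1.18 ± 0.09. Of 18 beta cell transcription factors 14 fell and 0 rose, 8 by at least 2-fold, with a median of -0.95 (-0.37 on the spike-in scale). Isl1, needed for islet cell survival, had signals of 2.25 and 2.24 against 4.58 and 4.51 (-2.29 ± 0.11, adjusted p = 2.5e-06). Pax6 fell by 1.78 ± 0.09, Foxa2 by 1.68 ± 0.13 and Nkx2-2 by 1.57 ± 0.10, all factors that maintain beta cell identity. Pdx1, the master regulator of the insulin gene, fell from 3.35 and 3.34 to 2.32 and 2.29 (-1.04 ± 0.08), a call lost on the spike-in scale (-0.45). Mafa, which activates insulin transcription in mature cells, moved by only -0.23 ± 0.09 (adjusted p = 0.047). It lost its call under most alternatives, and its change was 0.35 on the spike-in scale.

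**Figure D4:**
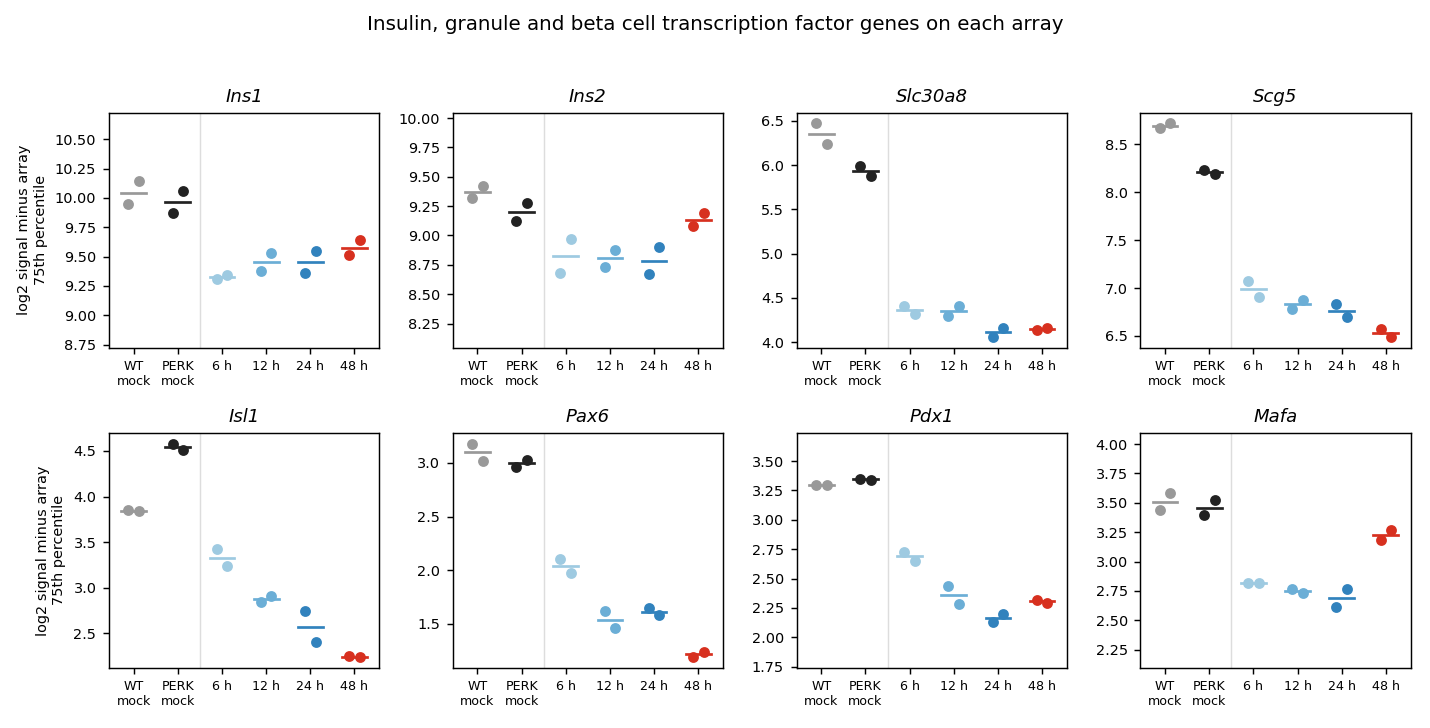
Log2 signal minus the array's 75th percentile (vertical axes, which differ between panels) of insulin, granule and transcription factor genes on each of 12 arrays, with points for arrays and bars for means of 2. Ins2 (9.08 and 9.19 at 48 h) overlaps its mock values (9.12 and 9.28), while Isl1 lies at 2.25 and 2.24 against 4.58 and 4.51.

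Of 14 genes of glucose sensing, the KATP channel and incretin receptors 10 fell and 1 rose, 8 of the falls by at least 2-fold. The median was -1.28 (-1.17 with genes dim in 1 group at their bound, -0.69 on the spike-in scale). Among the falls Adcy5 was dim in both groups and Ucn3 was dim in mock cells, so no fold is given for them. G6pc2, the islet glucose-6-phosphatase, had signals of 4.76 and 4.79 against 6.91 and 6.75 (-2.06 ± 0.11). Gipr, the receptor for the incretin GIP, fell by 1.99 ± 0.15 and Trpm5, a cation channel, by 1.89 ± 0.19. Kcnj11, the pore of the KATP channel, rose by 0.56 ± 0.10. Glp1r, the GLP-1 receptor, fell by 0.82 ± 0.09, which did not pass on the spike-in scale (-0.23). Slc2a2, the glucose transporter GLUT2, was well above background on neither mock array and did not pass (adjusted p = 0.07). Of 18 genes of granule exocytosis 4 rose and 9 fell (median -0.27, turning to 0.32 on the spike-in scale). Sytl4, granuphilin, fell from 3.02 and 3.01 to 1.32 and 1.31 (-1.70 ± 0.12), and Rab27a, its partner on the granule, by 1.07 ± 0.10. Stx1a, the plasma membrane SNARE, rose by 0.93 ± 0.13.

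Other hormone genes changed in both directions, with 4 rises and 6 falls among 11. Nts, neurotensin, was well above background on neither mock array and reached 0.81 and 0.80, at least 29.3-fold higher. Tac1, the precursor of substance P, rose from -0.79 and -0.88 to 3.08 and 2.96 (3.86 ± 0.20). Sst, somatostatin, fell by 0.97 ± 0.15, Npy by 0.91 ± 0.10 and Gcg, glucagon, by 0.56 ± 0.08. These last values differ with the control cells: against wild-type mock cells Sst changed by 3.21, Gcg by 0.75 and Npy by -0.14, the last without passing. Among 9 genes normally kept silent in beta cells 4 rose and 4 fell. They include Smad3, a TGF-beta mediator, at least 2.35-fold higher, and Maf, which fell by 1.72 ± 0.08. Of 8 tested genes of beta cell progenitors and dedifferentiation 2 rose and 4 fell, with Myc rising from -1.85 and -1.84 to 0.71 and 0.83 (2.62 ± 0.13).

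Inflammatory and immediate early genes were among the groups with the largest rises. Of 16 NF-kB targets, chemokines and acute-phase genes 15 rose and 1 fell, 11 of the rises by at least 2-fold. The median was 1.66 (1.53 with genes dim in 1 group at their bound, 0.93 with normexp). Of the 16, 4 were dim in 1 group, and 1, counted among the rises, was dim in both. Lcn2, a siderophore-binding acute-phase protein, had signals of 4.26 and 4.40 against -2.72 and -2.30 and rose by 6.84 ± 0.17 (adjusted p = 1.5e-07). Cxcl10, a chemokine for T cells, was at least 19.5-fold higher, Saa3, a serum amyloid protein, at least 13.5-fold and Ptgs2, inducible cyclooxygenase, at least 9.30-fold, all 3 being well above background on neither mock array. The 1 that fell, C3, a complement protein, had signals of -0.65 and -0.55 against -0.28 and -0.35. Its change of -0.28 ± 0.08 lost its call without 48 h replicate 1 (-0.24) or mock replicate 1 (-0.25), and against wild-type mock cells C3 was higher (0.35). Of 15 interferon-stimulated genes 3 rose and 5 fell, shares near those of all entries (27.2% higher, 34.6% lower), with Ifit2 falling by 1.40 ± 0.11 and Irf1, an interferon-responsive factor, by 0.68 ± 0.07. Irf1 did not pass on the spike-in scale (-0.09).

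Of 15 immediate early and AP-1 genes 11 rose and 1 fell, 9 of the rises by at least 2-fold, with a median of 1.38. Egr4 stood at 1.69 and 1.79 against -1.61 and -1.85 (3.47 ± 0.12), its relative Egr2 rose by 3.82 ± 0.22 and Ier2, another immediate early gene, by 3.06 ± 0.11. Fosl1, an AP-1 subunit, was at least 3.78-fold higher. Fosl2, another AP-1 subunit, was the 1 that fell (-0.48 ± 0.16), a call lost when any 1 of the 4 arrays was left out (-0.55 to -0.41). A second Fosl2 probe was higher by 1.21, so its direction is unsettled. Of the same list, 12 of the 15 were lower at 48 h than at 6 h and 3 were higher, against 27.6% and 33.2% of all entries. Egr4 was 6.57 above mock at 6 h. The transgenic mock cells had higher levels than wild-type mock cells for 6 of the 15, and for 7 of the 16 inflammatory genes.

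Outside the lists the largest rises went to genes of varied function. Lgals3, the lectin galectin-3, had signals of 4.77 and 4.68 against -2.37 and -2.37 and rose by 7.10 ± 0.17 (adjusted p = 1.5e-07), the most of any named gene measured on all 4 arrays. Anxa10, an annexin, rose from -4.02 and -3.59 to 2.85 and 2.88 (6.67 ± 0.27). Soat2, which esterifies cholesterol, rose by 5.66 ± 0.15, and Il34, a ligand of the CSF1 receptor, by 5.21 ± 0.10. Gsto1, a glutathione transferase, went from -2.32 and -2.32 to 2.66 and 2.82 (5.05 ± 0.08). Cdsn, a desmosomal adhesion protein, rose by 4.59 ± 0.26 and Snhg17, a snoRNA host transcript, by 4.58 ± 0.12. Rnd1, a small GTPase, rose by 4.12 ± 0.08. H4c17, a histone H4 gene with near-identical copies that its probe may not separate, rose by 4.22 ± 0.17.

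Further genes were well above background on neither mock array, so only a bound can be given. P2rx7, an ATP-gated ion channel, reached 2.65 and 2.62 and was at least 105-fold higher. The bound was 71.9-fold for Acox2, an oxidase of peroxisomes, 59.8-fold for Slco1b2, an organic anion transporter of liver, and 57.9-fold for Hrk, a BH3-only killer of the Bcl2 family. Cfap58, a ciliary protein, and Tmem140, a membrane protein, followed at 38.3-fold and 36.5-fold. In the other direction, Tyrp1, an enzyme of melanin synthesis, went from -0.82 and -1.25 to below background and was at least 15.2-fold lower. The bounds were 5.36-fold for Slc38a11, a transporter-like protein, 5.20-fold for Sowaha and 4.77-fold for Aurkb, the mitotic kinase aurora B. Sowaha varied most in mock cells (-3.85 and -1.31) and lost its call in the fit of the 4 arrays alone and against wild-type mock cells. Lratd1 fell by 3.20 ± 0.16, from 0.11 and 0.15 to -3.15 and -3.00.

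Cell death genes were mixed, with 7 rises and 7 falls among 17 members of the Bcl2 family and death receptors (median 0.03). Besides Hrk, Bid, which links death receptors to mitochondria, went from -0.51 and -0.51 to 1.73 and 1.84 (2.30 ± 0.10). Bbc3, the gene of PUMA, rose by 1.65 ± 0.08 and Bcl2l11, the gene of BIM, by 1.30 ± 0.13. Bik, another BH3-only gene, fell by 1.52 ± 0.09 and did not pass against wild-type mock cells (-0.22). Bad, also BH3-only, fell by 0.47 ± 0.11, and Bmf, of the same class, did not pass (0.14 ± 0.13). Of 17 p53 targets 10 rose and 7 fell, with Plk2, a polo-like kinase, rising by 2.55 ± 0.26 and Phlda3, an AKT repressor, by 1.04 ± 0.08. Cdkn1a, the cell cycle inhibitor p21, had signals of 4.56 and 4.62 against 3.05 and 3.10 (1.52 ± 0.07, adjusted p = 1.9e-06). Sesn1, a sestrin, fell by 1.48 ± 0.09.

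Cell cycle genes were counted by phase. Of 25 genes of DNA replication 17 rose and 4 fell, with a median of 0.57, whereas of 25 mitosis genes 1 rose and 17 fell, with a median of -0.72 (-0.13 on the spike-in scale). Mcm10, which helps start replication forks, rose from 2.24 and 2.24 to 4.48 and 4.42 (2.21 ± 0.07, adjusted p = 2.6e-07). Mcm2, a subunit of the replicative helicase, rose by 1.41 ± 0.08 and Gins1, which joins it in the active helicase, by 1.14 ± 0.10. Tk1, thymidine kinase, fell by 0.88 ± 0.07, a call lost on the spike-in scale (-0.29). Birc5, survivin, stood at 4.54 and 4.46 against 5.67 and 5.69 (-1.19 ± 0.08), and Nusap1, a spindle protein, fell by 1.22 ± 0.09. Kif23, a motor of cytokinesis, rose by 0.34 ± 0.09 and lost its call without 48 h replicate 2 (0.26), without mock replicate 2 (0.26) and in the fit of the 4 arrays alone.

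At 6 h, against the same mock arrays, 10 mitosis genes were higher and 8 lower (median 0.20), and from 24 to 48 h 21 of 25 fell and 0 rose, against 23.1% and 25.6% of all entries. Replication genes also fell from 24 to 48 h (16 of 25, with 0 rises). Transgenic mock cells already had higher levels than wild-type mock cells for 10 replication and 6 mitosis genes. Of 11 D cyclins, CDK4/6 and their inhibitors 2 rose and 6 fell. Besides Cdkn1a, Cdkn2b rose by 0.58 ± 0.08, while the inhibitors Cdkn2c, Cdkn2d and Cdkn1b fell by 1.61 ± 0.09, 1.59 ± 0.08 and 1.04 ± 0.07 and Ccnd3, cyclin D3, by 0.75 ± 0.09. On the spike-in scale Cdkn1b (-0.45) and Ccnd3 (-0.16) did not pass. Ccnd1 was not tested, being well above background on too few arrays.

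Of 18 targets of NRF2, the antioxidant factor that PERK can also phosphorylate, 4 rose and 11 fell (median -0.40, turning to 0.19 on the spike-in scale). Hmox1, heme oxygenase, had signals of 4.95 and 5.01 against 2.94 and 2.88 (2.07 ± 0.08), while Nqo1, a quinone reductase, fell from 2.01 and 1.90 to -0.54 and -0.62 (-2.53 ± 0.10) and Gstm1, a glutathione transferase, fell by 1.69 ± 0.09. Txnip, the thioredoxin-binding protein that beta cells raise in ER stress, rose from 0.04 and 0.10 to 1.81 and 1.76 (1.71 ± 0.14). Of 7 genes listed with Txnip and the arrestin family 2 rose and 2 fell against mock. The list also holds Mlxipl, the glucose-sensing factor ChREBP and no arrestin, which was among the falls. All 7, Txnip included, were lower at 48 h than at each of 6, 12 and 24 h. Over all entries 27.6% were lower than at 6 h and 23.1% lower than at 24 h.

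Lipid genes differed by pathway in their counts. Of 15 genes of fatty acid synthesis and desaturation 13 fell and 1 rose, with a median of -0.66 that was -0.07 on the spike-in scale. Acacb, the acetyl-CoA carboxylase that restrains fatty acid oxidation, was the exception, at 0.30 and 0.26 against -3.45 and -3.46 (3.73 ± 0.09, adjusted p = 1.5e-07). Mlxipl, the glucose-sensing factor ChREBP, fell by 1.82 ± 0.08, Scd2, a desaturase, by 1.64 ± 0.11 and Acly, which supplies acetyl-CoA, by 1.04 ± 0.08, the last without passing on the spike-in scale (-0.45). Of 23 sterol synthesis genes 2 rose and 11 fell (median -0.32, turning to 0.27 on the spike-in scale), with Lss, lanosterol synthase, rising by 1.16 ± 0.11. Of 19 genes of fatty acid oxidation 6 rose and 6 fell. Acot2, a mitochondrial thioesterase, was at least 6.72-fold higher and Cpt1a, the entry step, rose by 0.69 ± 0.09, while Cpt2, its inner membrane partner, fell by 1.46 ± 0.09.

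Lysosomal genes fell more often than they rose, with 13 falls and 7 rises among 23 (median -0.36, turning to 0.23 on the spike-in scale). Gpnmb, a lysosomal stress glycoprotein, was the outlier of the list, at 2.96 and 2.89 against -4.17 and -3.65 (6.84 ± 0.23). Npc1, the lysosomal cholesterol exporter, rose by 1.28 ± 0.19, while Npc2, its partner, fell by 1.25 ± 0.07. Over time 18 of 23 were higher at 48 h than at 6 h and 16 higher than at 24 h, against 33.2% and 25.6% of all entries. Of 20 autophagy genes 10 rose and 6 fell, led by Sqstm1, the cargo receptor p62 (1.53 ± 0.09), Map1lc3a, an LC3 protein (1.28 ± 0.09), and Atg7, the enzyme that activates LC3 (1.03 ± 0.07).

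Most respiration and ribosomal protein genes fell, though the medians of both lists were near 0 on the spike-in scale. Of 25 oxidative phosphorylation genes 19 fell and 2 rose (median -0.59, or 0.00 on the spike-in scale), from Cox6c, a subunit of cytochrome oxidase (-1.32 ± 0.11), and Ndufa1, of complex I (-1.27 ± 0.10), to Uqcrc1, of complex III, which rose by 0.55 ± 0.11. Of 25 cytosolic ribosomal proteins 23 fell and 0 rose, with a median of -0.55 that turned to 0.02 with quantile normalization and 0.04 on the spike-in scale. Rpl11 fell from 8.98 and 9.04 to 7.89 and 7.93 and Rplp0 by 1.03 ± 0.09, and neither passed on the spike-in scale (-0.51 and -0.44). Transgenic mock cells were already below wild-type mock cells for 19 of the 25. Of 14 genes listed as mitochondrial chaperones and proteases 6 rose and 1 fell. The list also holds the hormone gene Fgf21, which is counted among the rises. Hspa9, mortalin, stood at 6.10 and 6.17 against 4.78 and 4.65 (1.42 ± 0.07). Of 14 cytosolic heat shock genes 4 rose and 6 fell, among them Hsf1, the heat shock factor (0.67 ± 0.08), and Dnajb1 (-1.03 ± 0.11, and -0.44 without passing on the spike-in scale).

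Between 24 and 48 h 11402 entries differed (48.8%), 1750 higher (7.48%) and 624 lower (2.67%) by at least 2-fold, again across the 2 slides. The largest late rises among genes measured at both times began with Gsto1, which was 2.38 above mock at 24 h and 5.05 at 48 h (difference 2.68, adjusted p = 1.9e-05). Tmem140 and Tppp3, a tubulin-binding protein, behaved likewise, and Tppp3 was 0.96 above mock at 24 h and 3.30 at 48 h. Nyx, nyctalopin, Plb1, a phospholipase, and Fev, a serotonergic factor, were well above background on neither mock array and at least 14.9-fold, 7.68-fold and 5.94-fold higher at 48 h. Lgals3 and Lcn2 also kept rising, by 1.90 (adjusted p = 0.00017) and 2.07 (adjusted p = 0.00012) over the last day. Atf3, by contrast, was 5.58 above mock at 6 h and 6.52 at 48 h. Over the same day Areg, an EGF receptor ligand, dropped from 3.86 to 2.03 above mock, Aqp5, a water channel, from 5.03 to 3.03, Frat1, a GSK3 inhibitor, from 3.36 to 1.53 and Tex16 from 2.59 to 0.65. Aqp5 and Frat1 were well above background on neither mock array, so these are fitted values and no folds. Frat1 turned to -0.24 against mock with normexp.

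**Figure D5:**
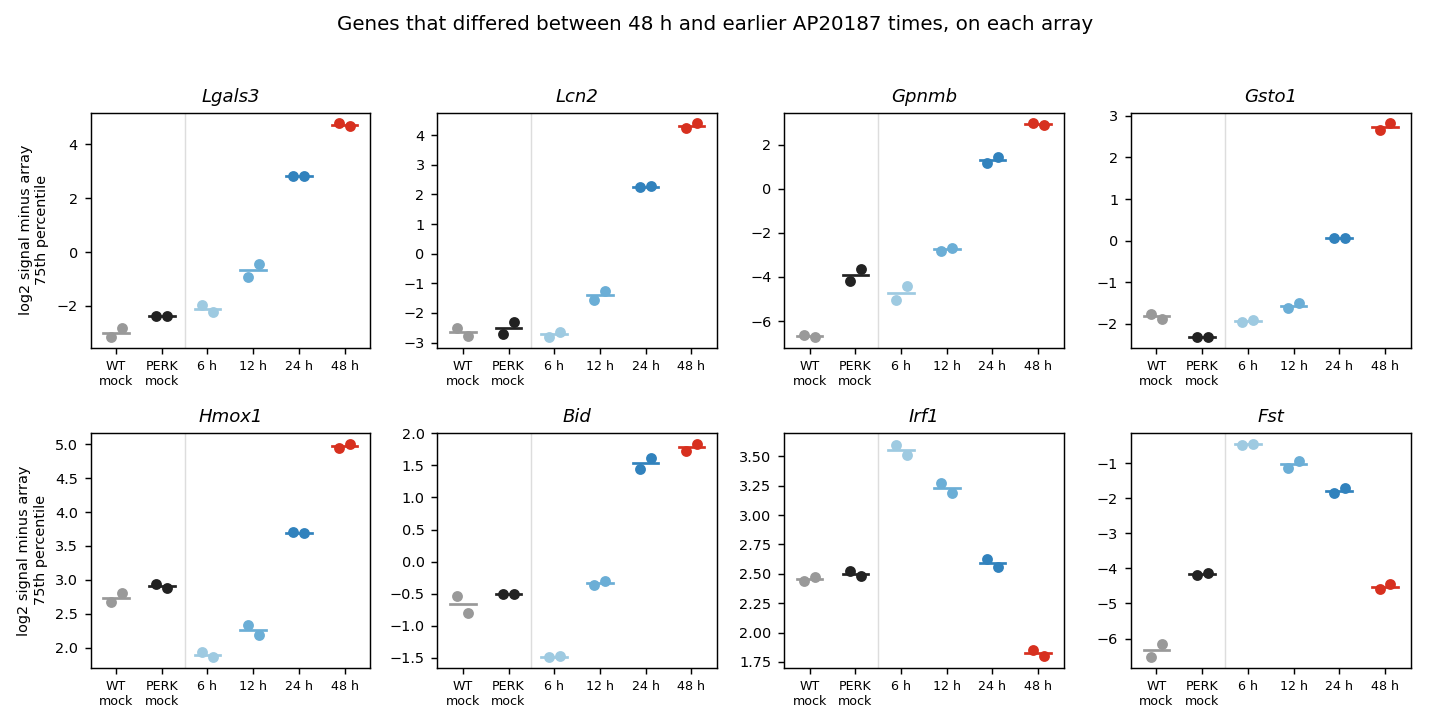
Log2 signal minus the array's 75th percentile (vertical axes, which differ between panels) on each of 12 arrays for 8 genes whose level at 48 h differed from an earlier AP20187 time, with points for arrays and bars for means of 2. Gsto1 reaches 2.66 and 2.82 at 48 h from -2.32 and -2.32 in mock cells, and Irf1 ends at 1.85 and 1.80, below its mock values of 2.52 and 2.48.

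Markers of other cell types were mostly dim. Of 13 exocrine markers 4 were well above background on both 48 h arrays and 3 on both mock arrays, and their summed level (log2) was 4.88 and 4.98 against 4.59 and 4.28. Acinar enzymes such as Cpa1, Cela1 and Pnlip were below background on all 4 arrays, and Amy2a5, an amylase gene with close copies, had a bound of 2.04-fold upward that normexp did not keep (0.08). For 11 mesenchymal, endothelial and immune markers on the array the summed level was 3.93 and 3.93 against 3.70 and 3.89, with Vim, vimentin, rising by 1.59 ± 0.11 and Col1a1, Cdh5 and Ptprc below background. For 10 heart muscle markers it was 0.89 and 0.93 against 0.16 and 0.33, with Tnnt2 and Actc1 below background, and all 4 tested, Myh6, Nppa, Myl4 and Ryr2, rose (median 0.67, or 0.61 with Myh6, dim in mock cells, at its bound). For 15 skeletal muscle markers it was 0.59 and 0.60 against 0.69 and 0.77, and of 6 tested Tnnc2 rose by 1.81 ± 0.19 and Actn3 fell by 1.11 ± 0.27. For 8 neuronal and glial markers it was 3.01 and 3.04 against 3.11 and 3.12. The part of such cells in the results was not tested, and in bulk RNA fewer cells of a type and less RNA per cell cannot be told apart.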

How the data were processed

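RNA from MIN6m9 cells was labelled with Cy3 and hybridised to one-colour Agilent arrays, per the labels. The deposited intensity of each spot comes from Agilent Feature Extraction 10.7.1.1 (file headers and the submitters' processing notes), with background subtracted and no scaling between arrays. The authors' series matrix holds log2 values, which equal the processed signal minus each array's 75th percentile (to within 0.0036) and a baseline per probe of unknown origin.

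Here, outlier spots were dropped, spots of a probe averaged, log2 taken and each array's 75th percentile subtracted. Accessions matched to RefSeq (GRCm38.p6) named 26582 of 55681 probes. For 5370 symbols with several probes the brightest stood for the gene. Of 204 genes chosen by the naming rule and checked one by one, 47 had a second probe fitted, and 1 (Fosl2) had one called in the opposite direction. Of 37208 entries 23388 were tested, those that every array of some group measured well above background, with limma 3.58.1 (R 4.3.3) on 12 arrays, 1 coefficient per group, with Benjamini-Hochberg adjustment. Where no array of a group measured a gene, the bound compares the bright group's mean with a floor for the dim one: on each array the larger of the gene's signal and the weakest well-measured signal, averaged. The fit was tested on simulated data. The number of arrays limits the precision.

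Genes named are the 12 largest rises and falls, the 6 highest bounds each way, up to 4 and 2 called members of each list, the 8 largest changes each way from 24 to 48 h, and a fixed set; some of these are given as counts only or are not reported here. The 45 gene lists, the fixed set and the comparison were chosen with earlier results of these data known. Vldlr, Stc2, Cnpy2, Bad, Bmf, Canx, Creld2, Derl3, Syvn1, Ucn3, Nck1 and Hif1a were named after their values were seen. The same holds for Creb3l3, Mbtps1, Mbtps2 and Atf6b. The 2-fold counts and the wild-type control were added after seeing the data.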

Additional observations from a re-analysis of the deposited data

Results flagged for a closer look

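Some named genes stood on opposite sides of mock at 48 h and at an earlier AP20187 time, each side passing the limma test, and the difference between the 2 times passed as well. The times share their mock arrays, and 48 h lay on another slide than the earlier times.

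Higher at 48 h after being lower than mock were Gpnmb (48 h minus 6 h 7.65), Fev (3.69), Bid (3.27), Hmox1 (3.08), Amy2a5 (2.08), Ndrg1 (1.78), Dnajb9 (1.72) and Cpt1a (1.00) against 6 h. Fev and Amy2a5 were well above background on neither mock array. Their lower values at 6 h (-1.12 and -0.40 against mock) are therefore fitted values near background and show no measured fall. Gpnmb had low mock signals too (-4.17 and -3.65), so its lower value at 6 h (-0.82 against mock) also lies near background. Higher at 48 h against 12 h were Tagln, a smooth muscle actin-binding protein (2.52), Hyou1 (1.40), Atf6 (1.31) and Uqcrc1 (0.92), and against 24 h Pla2g4b, a phospholipase (2.26).

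Lower at 48 h after being higher than mock were Fst, the activin antagonist follistatin (48 h minus 6 h -4.06), Slc43a2 (-1.99), Irf1 (-1.73), Nusap1 (-1.65), Pars2 (-1.33) and Fosl2 (-1.28) against 6 h. Against 12 h they were Pik3ip1, a PI3 kinase inhibitor (-2.57), Ptpn5, a phosphatase (-2.35), and Pkia, an inhibitor of protein kinase A (-2.27). For Fst and Ptpn5 the side depends on the control cells: against wild-type mock cells they were 1.81 and 3.51 higher at 48 h. Fst was also 0.23 above mock on the spike-in scale, and its call at 48 h was lost when any 1 of the 4 arrays was left out.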

How the results depend on the processing

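Leaving out 1 of the 4 arrays gave 11935 to 12809 changed entries, 5159 to 5659 higher and 6776 to 7150 lower, the lone array being assumed to vary like the other groups. The count of lower entries was 13834 with no filter on dim probes. Spike-in scaling gave 10166 higher and 1324 lower entries, and 8481, 8400 and 6778 changed entries for 48 h against 6, 12 and 24 h (14219, 13953 and 11402 before) and 1410 for transgenic against wild-type mock. That last count ran from 2642 to 3635 without 1 array. Replicate numbers did not pair the arrays (r = 0.081 between 48 h and mock, -0.007 to 0.131 over 15 pairs), and with the replicate block 6367 entries were higher and 8054 lower. Slide as a fixed or random block could not be fitted, since each group lies on 1 slide. The changes of the 204 genes checked kept their direction except for Hspa5 (0.60 with quantile normalization, 0.13 with normexp, 0.58 with spike-in scaling, -0.05 to 0.04 when 1 array was left out, 0.06 against wild-type mock), Ins1 (0.07 with quantile normalization, 0.20 with spike-in scaling), Ins2 (0.41 with quantile normalization, 0.05 with normexp, 0.52 with spike-in scaling, -0.15 to 0.01 when 1 array was left out), Frat1 (-0.24 with normexp), and with spike-in scaling Mafa (0.35), Gcg (0.03), Fst (0.23), C3 (0.30) and Fosl2 (0.11). Against wild-type mock Gcg (0.75), Sst (3.21), Fst (1.81), Ptpn5 (3.51), C3 (0.35) and Fosl2 (0.03) turned, as did Fosl2 with the mean over probes (0.37). The cause was not tested. Signal over background limits the genes given as bounds.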
